A study of Homo sapiens with 9 samples.

Results

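The kinesins are the motor proteins named KIF, and their RNA was followed in irradiated KYSE180 cells that carried a control hairpin or either of 2 hairpins against EZH2. The family was taken as every protein-coding gene of the count table whose symbol is KIF followed by a number and, in some, a letter from A to C. That gave 39 genes of 57905 in the table, of which 28 had enough reads to be tested (13252 genes were tested in all). They were sorted by their textbook roles into 12 mitotic kinesins, 13 transport kinesins and 14 others, and 11, 10 and 7 of these were tested. The rule for the members and classes uses no measured value, but it was chosen with earlier results of these data known.

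KYSE180 is an established human esophageal squamous cell carcinoma line, which the series title describes as lacking KDM6A, an enzyme that removes the methyl groups EZH2 puts on histone H3. RNA was sequenced from 9 libraries, all from cells exposed to 6 Gy of ionizing radiation and grown in RPMI medium with fetal bovine serum. The groups had 3 libraries each: shluc (a hairpin against luciferase), shEZH2#1 and shEZH2#3 (hairpins against EZH2, the catalytic subunit of Polycomb repressive complex 2). The genotype label of the hairpin libraries reads EZH2 knockout and that of shluc wild type, whereas the titles and the design text name hairpins. No unirradiated library was analysed here. Whether the replicates came from separate cultures is not in the labels, and the p-values then reflect spread among libraries that may be purely technical.

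Kinesins are ATP-driven motors that walk along microtubules or take their ends apart. Mitotic kinesins build the bipolar spindle, move and align chromosomes, and organise the central spindle on which the cell divides; many of their genes are transcribed mainly in late G2 phase and mitosis. Transport kinesins carry vesicles, organelles and ciliary cargo towards microtubule plus ends and work throughout the cell cycle. In bulk RNA, fewer cells in G2 or mitosis and less RNA per such cell cannot be told apart.

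Library totals ran from 14958011 to 21152006 estimated counts, and 1 count was worth 0.0473 to 0.0669 CPM when scaled to these unadjusted totals. All CPM below are counts scaled to the TMM-adjusted library total, with factors from 0.8272 (shEZH2#3 replicate 1) to 1.3263 (shluc replicate 2). EZH2 stood at 18.4, 20.1 and 19.5 CPM in shluc, at 11.6, 11.4 and 7.28 in shEZH2#1 and at 9.67, 11.0 and 9.12 in shEZH2#3 (replicates 1 to 3 in each group, as in all lists of values here). Both hairpin groups lay below shluc without overlap, at 52.2% and 51.4% of its mean. With the correction for GC content and transcript length introduced below, the falls of EZH2 were smaller. The log2 fold changes were then -0.73 with shEZH2#1 and -0.56 with shEZH2#3 (edgeR adjusted p = 0.00399 and 0.0133). Of the squamous markers, KRT14, KRT6A and SOX2 did not exceed 6 counts in any library, and the summed markers (7 genes, 4 tested) took 10.2 to 10.7 CPM in shluc, with 7.92 to 8.53 in shEZH2#1 and 3.83 to 5.55 in shEZH2#3, so the defining markers of the labelled type were nearly absent. Summed fibroblast markers took 59.5 to 68.3, 53.9 to 62.4 and 79.5 to 118 CPM (COL1A2 at 0 in all libraries), endothelial markers 13.8 to 19.8, 7.97 to 8.29 and 28.4 to 32.7 CPM (KDR at 0), and leukocyte markers 1.43 to 2.44, 2.54 to 3.23 and 4.86 to 6.02 CPM (PTPRC and CD3E at 0). Neuronal markers (ELAVL4 at 0) reached at most 2.79 CPM and those of motile ciliated cells 3.99 CPM. The libraries also differed in base composition. The rank correlation across 12949 genes between a gene's level in a library, relative to its mean, and its GC content ran from -0.70 to -0.40 in the shluc libraries, with -0.25 to 0.26 for shEZH2#1 and 0.38 to 0.65 for shEZH2#3. These group trends moved with the contrasts below, so calls of named genes that a correction for GC content and transcript length ended or reversed are given with and without it. Mitochondrially encoded RNA took 3.19 to 4.12% of counts in the shluc libraries, with 1.47 to 1.73% in shEZH2#1 and 5.22 to 7.31% in shEZH2#3, without overlap. The 2 most abundant genes without a symbol took 6.96 to 9.28%, 15.81 to 22.58% and 5.97 to 11.59%. The part of mitochondrial RNA in the results was not tested. Within their groups, shluc replicate 2 and shEZH2#3 replicate 1 differed most from the others.

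Read per kilobase of the longest transcript, which allows genes to be compared, the levels of the 28 tested kinesins in shluc spanned from 113 CPM per kb for KIF22, a chromosome-arm motor, to 0.114 CPM per kb for the ciliary motor KIF3A. The mitotic KIF22, KIF2C (36.0) and KIF20A (28.1) and the transport kinesin KIF1C (38.7) led the order. KIF1C and KIF2C overlapped between libraries, while KIF22 and KIF20A overlapped with neither neighbour. KIF26A (13.4) and KIF18B (9.57) followed and overlapped, and then came KIF4A (5.73) and KIF23 (4.26). The ubiquitous cargo motor KIF5B stood at 2.39 and the spindle motor KIF11 at 1.84 CPM per kb. From KIF23 down to KIF7 each gene overlapped the next in the order, as did those from KIF17 down to KIF15. The 11 untested members had at most 7 counts in any library. They were the neuronal motors KIF1A (highest count 3), KIF5A (1) and KIF5C (1), KIF4B (3), KIF12 (3), KIF19 (2), KIF25 (2), KIF26B (5), KIF27 (7), KIF6 (2) and KIF2B, which had 0 counts in all 9 libraries. KIF4B is a near-identical copy of KIF4A, so its few reads, and part of those given to KIF4A, are uncertain.

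Promoters were read because many genes of G2 and mitosis share a start-site element, the cell cycle genes homology region (CHR), which MuvB complexes bind and which often lies near a CCAAT box bound by NF-Y. RefSeq windows of 300 bases (250 before the start site and 50 from it, GRCh38.p14) were matched by symbol for 12 of 12 mitotic, 11 of 13 transport and 10 of 14 other kinesins. They were searched on both strands for the letters TTTGAA or TTCGAA (the CHR core) and for the letters CCAAT. The box and the core can share at most 1 base, and the second form of the core reads the same on both strands. A CHR core match lay in a window of 10 of 12 mitotic kinesins, 1 of 11 transport kinesins (KIF5B) and 1 of 10 others (KIF24). The 10 include KIF4A and its near-identical, untested copy KIF4B, whose matches lie in the same letters and are not independent. CCAAT was present in 10, 4 and 3 of them, and both kinds of match in 9, 1 and 1. Of all 35116 windows of that length, 16.4% held a CHR core, 34.6% CCAAT and 6.38% both. Counted by gene, the shares were 19.5%, 39.7% and 9.02%. A match describes letters in a window and is not a site or a cause. The CHR core matches of the mitotic members are printed below on the gene's strand, 5′ to 3′, with the matched letters in capitals (TTCAAA and ATTGG are TTTGAA and CCAAT read on the other strand), to show each match in its context; the shared core was fixed by the search.
KIF11, chr10:92593090-92593119, plus strand, match at -28 to -23 from the start site: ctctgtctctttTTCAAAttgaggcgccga
KIF14, chr1:200620733-200620762, minus strand, match at 2 to 7: gcggggcgcccaTTCAAAttgcggccttct
KIF15, chr3:44761747-44761776, plus strand, match at -35 to -30: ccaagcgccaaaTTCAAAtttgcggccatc
KIF18A, chr11:28108149-28108178, minus strand, match at -10 to -5: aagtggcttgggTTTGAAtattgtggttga
KIF18B, chr17:44947754-44947783, minus strand, match at 3 to 8: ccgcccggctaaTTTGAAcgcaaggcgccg
KIF20B, chr10:89701602-89701631, plus strand, first of 2 adjoining matches at 25 to 30: tggccgccattgTTTGAATTTGAAaacggt
KIF22, chr16:29790712-29790741, plus strand, match at -27 to -22: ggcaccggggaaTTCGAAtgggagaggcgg
KIF23, chr15:69414282-69414311, plus strand, match at -55 to -50: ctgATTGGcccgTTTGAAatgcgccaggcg
KIF4A, chrX:70290058-70290087, plus strand, match at -34 to -29: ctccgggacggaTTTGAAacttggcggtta
KIF4B, chr5:155013746-155013775, plus strand, match at 4 to 9: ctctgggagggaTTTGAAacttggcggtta

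KIF20A held CCAAT 2 times and no CHR core in its window, and KIF2C held neither. The stretches around the KIF20A matches are shown because KIF20A carried the largest fall of the mitotic members with either hairpin.
KIF20A, chr5:138179006-138179034, plus strand, match at -94 to -90: ttccttacgcggATTGGtagctgcaggct
KIF20A, chr5:138179033-138179061, plus strand, match at -67 to -63: cttccctatctgATTGGccgaacgaacgc

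For contrast, the 100 bases before the start site are printed for 3 mitotic members and 3 transport members with the same capitals. They are examples and do not stand for their classes. Of those not printed, the transport kinesin KIF3B holds CCAAT in these bases and the mitotic KIF2C holds no match. In the printed mitotic windows a CCAAT box stands upstream, in 2 of them followed by the CHR core. The core of KIF18B lies just past the start. KIF5B holds a CCAAT box, with its CHR core match farther upstream (-140 to -135), and the windows of KIF1C and KIF17 hold neither within these bases.
KIF11, chr10:92593030-92593129, plus strand: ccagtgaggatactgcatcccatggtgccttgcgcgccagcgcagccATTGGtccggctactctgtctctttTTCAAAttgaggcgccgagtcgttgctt
KIF4A, chrX:70290004-70290103, plus strand: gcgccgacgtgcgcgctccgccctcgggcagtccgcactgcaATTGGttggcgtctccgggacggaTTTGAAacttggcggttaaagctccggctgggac
KIF18B, chr17:44947774-44947873, minus strand: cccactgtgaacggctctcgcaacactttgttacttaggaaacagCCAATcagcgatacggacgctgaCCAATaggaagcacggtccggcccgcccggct
KIF5B, chr10:32056426-32056525, minus strand: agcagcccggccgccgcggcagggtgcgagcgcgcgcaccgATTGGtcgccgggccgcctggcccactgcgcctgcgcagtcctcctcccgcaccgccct
KIF1C, chr17:4997850-4997949, plus strand: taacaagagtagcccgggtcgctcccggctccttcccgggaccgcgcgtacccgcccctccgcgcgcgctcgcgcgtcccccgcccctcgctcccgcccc
KIF17, chr1:20718008-20718107, minus strand: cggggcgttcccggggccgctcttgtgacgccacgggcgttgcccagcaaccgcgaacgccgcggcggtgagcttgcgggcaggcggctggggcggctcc

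**Figure D1:**
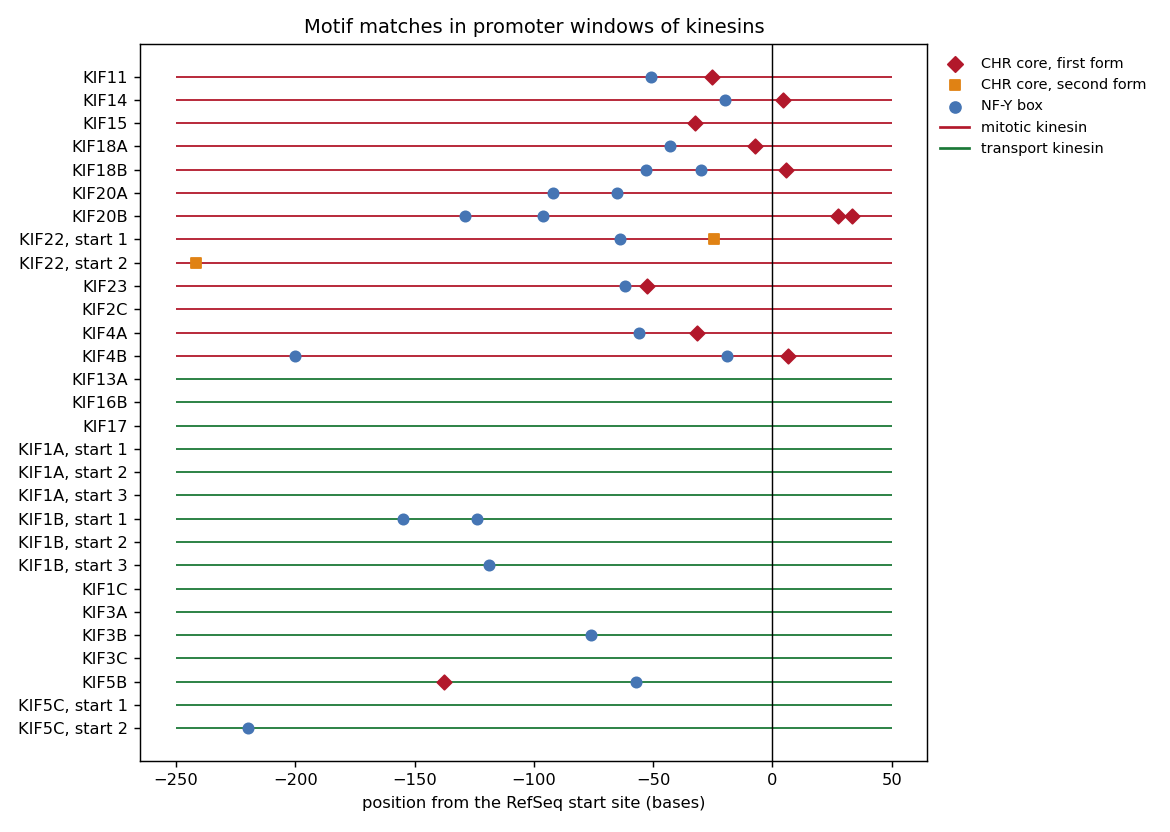
Motif matches in the RefSeq promoter windows of mitotic (red lines) and transport (green lines) kinesins. The horizontal axis is the position from the RefSeq start site in bases, each line is a window of 300 bases, diamonds and squares are the 2 forms of the CHR core (TTTGAA and TTCGAA) and circles are matches to CCAAT, the letters of the NF-Y box. A CHR core lies in a window of 10 of 12 mitotic kinesins and of 1 of 11 transport kinesins. The 10 include KIF4A and its near-identical copy KIF4B.

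With the hairpin shEZH2#3, most mitotic kinesins were lower than in shluc, while transport kinesins passed in both directions. Of the 11 tested mitotic kinesins, 8 fell and 0 rose (edgeR quasi-likelihood test, Benjamini-Hochberg adjusted p below 0.05 over all tested genes), with a median log2 fold change of -0.96. None of the others was higher at an unadjusted p below 0.05 (0 members), and DESeq2 and limma-voom called 0 higher and 6 and 7 lower. Among all tested genes 44.2% passed, 19.8% lower and 24.4% higher, and the median was -0.01. With shEZH2#1, 3 mitotic kinesins fell (KIF11, KIF18B and KIF20A) and 0 rose, with a median of -0.36, against 19.0% of all tested genes passing (7.89% lower and 11.2% higher) and a median of -0.07 over all of them. KIF22 was the only mitotic member higher at an unadjusted p below 0.05 with shEZH2#1, and DESeq2 and limma-voom called 0 higher. Both contrasts share the 3 shluc libraries. Every shEZH2#3 library lay below every shluc library for 8 mitotic members and above for 1; the shares of all tested genes were 26.0% and 26.9%. For shEZH2#1 the counts were 4 below and 2 above, beside 18.9% and 18.3% of all genes.

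The split of calls over all genes moved with the scaling. With shEZH2#3, upper quartile scaling gave 3720 lower and 2421 higher, against 2624 and 3237 with TMM, and moved the median of all genes to -0.18. The mitotic median then stood at -1.14, with 9 lower and 0 higher. With shEZH2#1, the split over all genes was 1045 lower and 1478 higher, 1311 and 1089 with the GC and length correction and 779 and 1698 without 2 very abundant genes that have no symbol. The mitotic calls with shEZH2#1 were 2 lower with the correction and 1 lower without those genes; in each case 0 were higher.

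**Figure D2:**
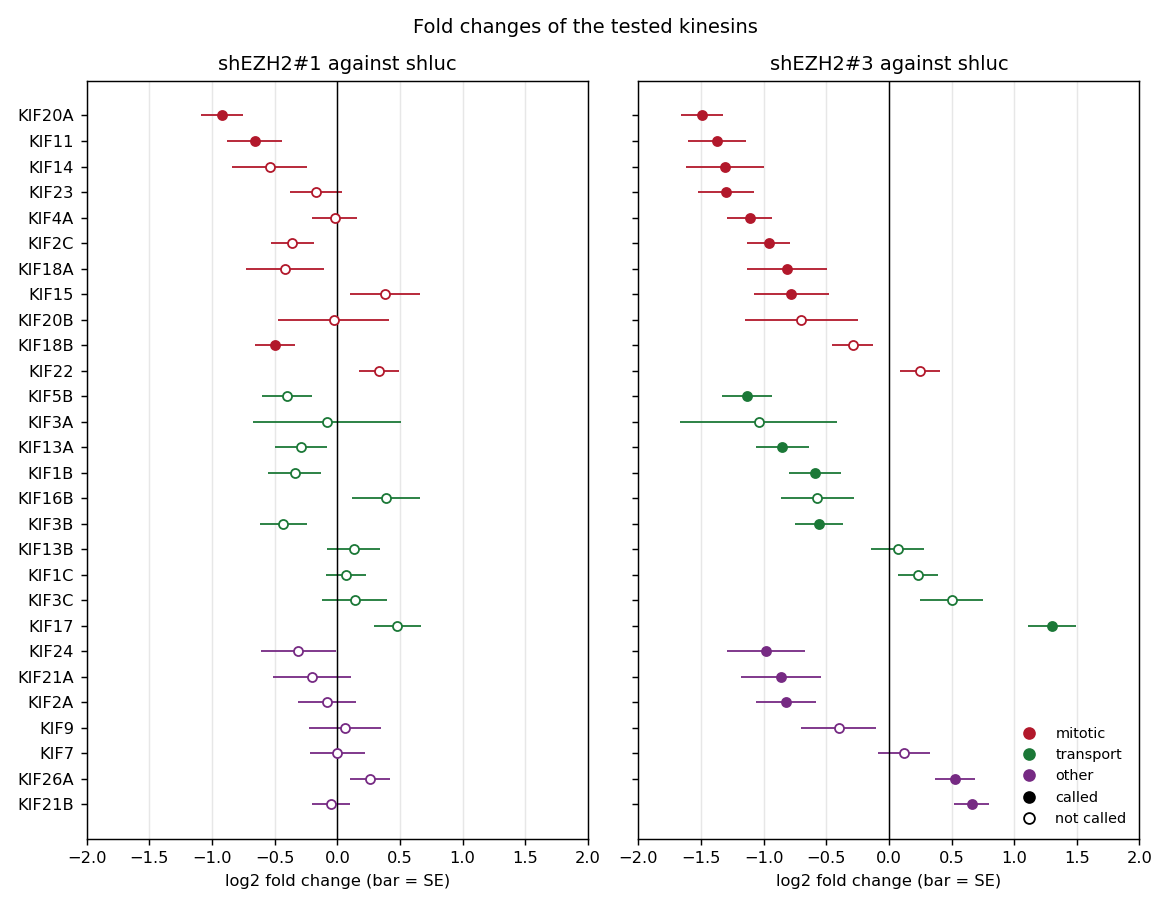
Log2 fold changes of the 28 tested kinesins with shEZH2#1 (left) and shEZH2#3 (right) against shluc, with bars for the standard error. Rows are genes ordered by class and by the shEZH2#3 value, colours are classes, and filled points passed the test. In the right panel 8 of 11 mitotic points are filled and negative, with KIF20A lowest at -1.49, whereas the transport points run from -1.13 (KIF5B) to 1.30 (KIF17).

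Of the motors of the central spindle and cytokinesis, KIF20A fell with both hairpins and KIF23, KIF4A and KIF14 with shEZH2#3. KIF20A (ENSG00000112984, chromosome 5, 138178719 to 138187715, GRCh38) brings the chromosomal passenger complex with Aurora B to the central spindle. It stood at 93.0, 101 and 76.0 CPM in shluc, at 47.0, 48.9 and 47.2 in shEZH2#1 and at 24.4, 33.3 and 38.1 in shEZH2#3. The 3 groups did not overlap, with shEZH2#3 lowest. It fell by 0.92 on the log2 scale with shEZH2#1 (standard error, SE, 0.17, edgeR adjusted p = 0.00109) and by 1.49 with shEZH2#3 (SE 0.17, adjusted p = 7.46e-06), to 53.0% and 35.5% of the control mean. These calls were kept in all 20 alternatives tried, and with the GC and length correction the changes were -0.69 and -1.30. KIF20A shares 3.34% of its exonic bases with BRD8 and 1.72% with CDC23 on the opposite strand, and since the strand setting of the counting is not given, a small part of its reads is uncertain.

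KIF23 (ENSG00000137807, chromosome 15, 69414246 to 69448427) forms the centralspindlin complex with RACGAP1. Its values were 12.9, 18.0 and 16.6 CPM in shluc, with 15.8, 13.5 and 13.2 in shEZH2#1 and 8.47, 4.05 and 6.80 in shEZH2#3. The shEZH2#1 libraries overlapped the controls and those of shEZH2#3 lay below both other groups. KIF23 fell with shEZH2#3 (log2 fold change -1.30 ± 0.22 SE, edgeR adjusted p = 0.000169), and its shEZH2#1 value was -0.17 ± 0.21 (adjusted p = 0.619). KIF4A (ENSG00000090889, chromosome X, 70290090 to 70420832), a chromosome-bound motor that works with PRC1 to set the length of the central spindle, had the same layout. It measured 24.3, 29.03 and 21.4 CPM in shluc, with 25.8, 24.7 and 23.2 in shEZH2#1 and 8.81, 11.5 and 14.3 in shEZH2#3. Only the shEZH2#3 libraries lay outside the control range, below it. KIF4A fell with shEZH2#3 (-1.11 ± 0.18, edgeR adjusted p = 0.000136), and its shEZH2#1 value was -0.02 ± 0.18 (adjusted p = 0.955). With the GC and length correction both still fell with shEZH2#3, KIF23 by 0.77 (adjusted p = 0.0113) and KIF4A by 0.76 (adjusted p = 0.00136).

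KIF14 (ENSG00000118193, chromosome 1, 200551497 to 200620734), which binds PRC1 and citron kinase at the midbody, was at 2.63, 5.06 and 3.50 CPM in shluc, with 3.09, 2.42 and 2.21 in shEZH2#1 and 1.77, 1.19 and 1.55 in shEZH2#3. All shEZH2#3 libraries were below the controls, and shEZH2#1 overlapped them. KIF14 fell with shEZH2#3 (-1.31 ± 0.31, edgeR adjusted p = 0.00241), and its shEZH2#1 value was -0.54 ± 0.30 (adjusted p = 0.213). The shEZH2#3 call was lost with the GC and length correction (-0.64, adjusted p = 0.0638). KIF20B, another cytokinesis motor, was the lowest of the tested mitotic members at 1.16 to 1.47 CPM in shluc, and it passed with neither hairpin (-0.03 and -0.70, adjusted p = 0.972 and 0.21).

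Among the motors that hold spindle poles apart, KIF11 fell with both hairpins and KIF15 with shEZH2#3. KIF11 (Eg5; ENSG00000138160, chromosome 10, 92593286 to 92655395) slides antiparallel microtubules apart and is the target of monastrol-type mitotic inhibitors. It stood at 7.37, 10.7 and 8.67 CPM in shluc, with 5.14, 5.68 and 6.10 in shEZH2#1 and 3.60, 2.37 and 4.31 in shEZH2#3. The 3 groups were stepped without overlap, shluc highest and shEZH2#3 lowest. The log2 fold change was -1.37 ± 0.23 with shEZH2#3 (edgeR adjusted p = 0.000168), kept in all 20 alternatives, and -0.66 ± 0.22 with shEZH2#1 (adjusted p = 0.0427). The shEZH2#1 call was lost in 12 of 20 alternatives. They included leaving out shluc replicate 2 or 3 or any 1 of the shEZH2#1 libraries (adjusted p from 0.0541 to 0.186), and the GC and length correction (-0.32, adjusted p = 0.298).

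KIF15 (ENSG00000163808, chromosome 3, 44761717 to 44873376) can hold the spindle bipolar when KIF11 is inhibited. Its levels were 2.40, 2.23 and 1.97 CPM in shluc, with 2.96, 2.48 and 3.16 in shEZH2#1 and 1.26, 1.43 and 1.16 in shEZH2#3. The shEZH2#1 libraries lay above all controls and the shEZH2#3 libraries below them. KIF15 fell with shEZH2#3 (-0.78 ± 0.30, edgeR adjusted p = 0.0409), and its shEZH2#1 value was 0.38 ± 0.28 (adjusted p = 0.367). That fall was lost in 12 of 19 alternatives, including every fit without 1 of the shEZH2#3 libraries or without shluc replicate 1 or 2 (adjusted p from 0.0652 to 0.113). Under the GC and length correction it was -0.19 (adjusted p = 0.648).

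The motors that trim microtubule ends differed in which hairpin passed. KIF2C (MCAK; ENSG00000142945, chromosome 1, 44739818 to 44767767), a depolymerase that frees wrongly attached kinetochores, was at 109.5, 110.5 and 98.8 CPM in shluc, with 89.0, 78.1 and 81.4 in shEZH2#1 and 40.6, 54.6 and 68.7 in shEZH2#3. The groups did not overlap and stepped down from shluc to shEZH2#3. It fell with shEZH2#3 (-0.96 ± 0.17, edgeR adjusted p = 0.000237), also with the GC and length correction (-0.91, adjusted p = 0.000269). Its shEZH2#1 value was -0.36 ± 0.17 (adjusted p = 0.139), and passed only with a stricter filter on expression (-0.42, adjusted p = 0.0475). KIF18A (ENSG00000121621, chromosome 11, 28020620 to 28108308), which damps the swinging of chromosomes at metaphase, measured 3.04, 4.11 and 2.35 CPM in shluc, with 2.18, 3.02 and 1.91 in shEZH2#1 and 2.12, 2.12 and 1.22 in shEZH2#3. Only the shEZH2#3 libraries were clear of the controls, by a narrow gap. KIF18A fell with shEZH2#3 (-0.81 ± 0.32, edgeR adjusted p = 0.044). The call was lost in 8 of 19 alternatives, among them the fits without shluc replicate 1 or 2 or shEZH2#3 replicate 2 or 3 (adjusted p from 0.0533 to 0.205) and the GC and length correction (-0.21, adjusted p = 0.637).

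KIF18B (ENSG00000186185, chromosome 17, 44924709 to 44947711), a motor that shortens astral microtubules, had 48.4, 40.0 and 32.6 CPM in shluc, with 25.8, 30.8 and 28.7 in shEZH2#1 and 31.0, 36.7 and 31.2 in shEZH2#3. Here shEZH2#1 was the group below the controls and shEZH2#3 overlapped them. KIF18B fell with shEZH2#1 (-0.50 ± 0.16, edgeR adjusted p = 0.0362), and its shEZH2#3 value was -0.29 ± 0.16 (adjusted p = 0.145). The shEZH2#1 call was lost in 8 of 20 alternatives, including the fits without shluc replicate 1 or 2 or any 1 shEZH2#1 library (adjusted p from 0.0564 to 0.169). With the GC and length correction KIF18B, whose transcript is GC-rich for a mitotic kinesin (58.4%), passed lower with shEZH2#1 (-0.67, adjusted p = 0.00193) as well as with shEZH2#3 (-0.76, adjusted p = 0.000599). It also passed with shEZH2#3 without shluc replicate 3 (-0.43, adjusted p = 0.0394).

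KIF22 (Kid; ENSG00000079616, chromosome 16, 29790719 to 29805385), a chromokinesin that pushes chromosome arms away from the poles, was the most abundant member and stood apart from the rest of its class. It measured 320.3, 220.0 and 308 CPM in shluc, with 333, 364 and 373 in shEZH2#1 and 338, 345 and 328 in shEZH2#3. All 6 hairpin libraries were above all 3 controls, of which replicate 2 was far lower than the other 2. The differences did not pass (0.33 ± 0.16, edgeR adjusted p = 0.149, and 0.25 ± 0.16, adjusted p = 0.197). Under the GC and length correction the shEZH2#3 value turned negative and passed (-0.25, adjusted p = 0.039). KIF22 shares 13.0% of its exonic bases with AC009133.4 on the opposite strand, and that part of its count is uncertain.

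**Figure D3:**
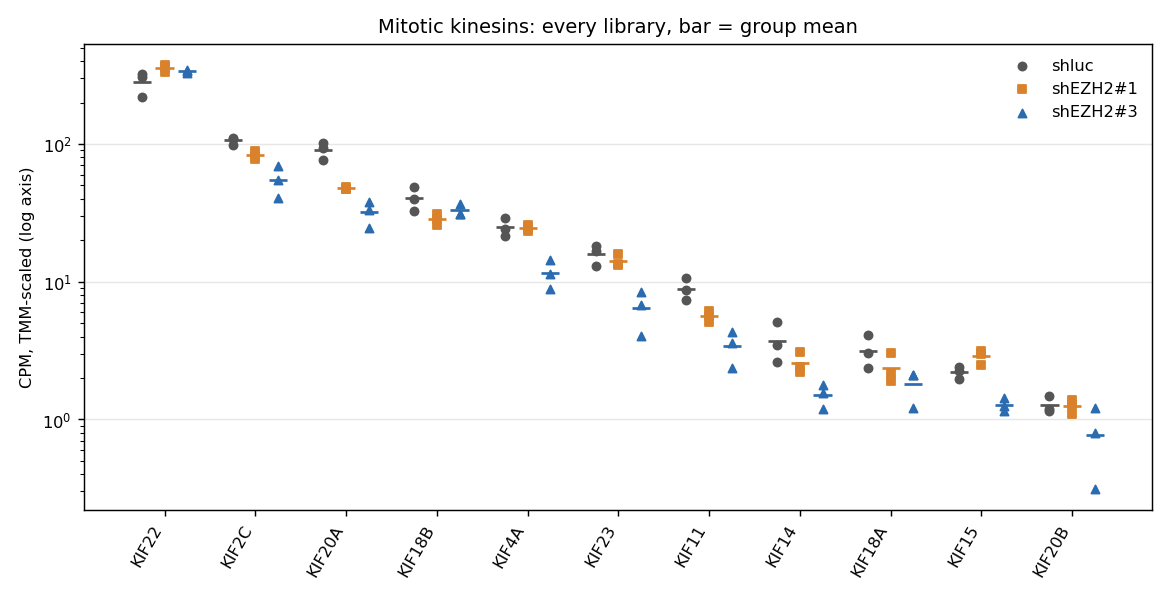
Levels of the 11 tested mitotic kinesins in every library, in CPM after TMM scaling on a log axis. Points are libraries, short bars are group means, and genes are ordered by mean level. The shEZH2#3 points (blue triangles) lie below all shluc points (grey circles) for 8 genes and above them for KIF22.

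Transport kinesins passed in neither direction with shEZH2#1 and in both with shEZH2#3. Of 10 tested members, 0 fell and 0 rose with shEZH2#1 by edgeR, DESeq2 or limma-voom, beside 19.0% of all tested genes called by edgeR. At an unadjusted p below 0.05, edgeR had 1 lower (KIF3B) and 1 higher (KIF17). KIF3B was called lower without shluc replicate 3 (-0.58, edgeR adjusted p = 0.0291). With shEZH2#3, 4 fell and 1 rose, with a median of -0.57, beside 19.8% lower and 24.4% higher over all genes. With the GC and length correction 1 fell (KIF5B) and 1 rose (KIF17), and the median was -0.18. Of all 13252 tested genes, 1528 were then lower and 1679 higher. Libraries of shEZH2#3 lay below all controls for 6 members and above for 1, beside 26.0% and 26.9% of all genes.

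KIF5B (ENSG00000170759, chromosome 10, 32009010 to 32056431), the heavy chain of conventional kinesin in most tissues, stood at 12.9, 18.2 and 11.2 CPM in shluc, with 12.8, 9.18 and 10.0 in shEZH2#1 and 6.18, 6.24 and 6.91 in shEZH2#3. The shEZH2#3 libraries were tightly grouped below both other groups. KIF5B fell with shEZH2#3 (-1.13 ± 0.20, edgeR adjusted p = 0.000282), with the GC and length correction by 0.47 (adjusted p = 0.0226), and its shEZH2#1 value was -0.40 ± 0.20 (adjusted p = 0.16). KIF17 (ENSG00000117245, chromosome 1, 20664014 to 20718017), a homodimeric kinesin-2 of cilia and dendrites, went the other way. Its values were 4.28, 3.99 and 4.41 CPM in shluc, with 5.93, 5.62 and 6.17 in shEZH2#1 and 10.8, 11.3 and 9.23 in shEZH2#3. The groups stepped up without overlap. KIF17 rose with shEZH2#3 (1.30 ± 0.19, edgeR adjusted p = 4.02e-05; 0.67 with the GC and length correction, adjusted p = 0.00542), and its shEZH2#1 value was 0.48 ± 0.19 (adjusted p = 0.0808). The KIF5B and KIF17 calls with shEZH2#3 were kept in all 20 alternatives.

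The other transport calls were smaller or less stable. KIF13A (ENSG00000137177, chromosome 6), which moves recycling endosomes, had 9.67, 15.0 and 10.3 CPM in shluc, with 11.98, 9.48 and 7.13 in shEZH2#1 and 6.41, 6.11 and 6.85 in shEZH2#3, the last all below the controls. It fell with shEZH2#3 (-0.85 ± 0.21, edgeR adjusted p = 0.00381), a call lost with the GC and length correction (-0.44, adjusted p = 0.0614). KIF1B (ENSG00000054523, chromosome 1), a carrier of mitochondria and synaptic vesicle precursors, measured 19.99, 33.7 and 17.7 CPM in shluc, with 22.1, 14.6 and 19.8 in shEZH2#1 and 14.6, 15.4 and 17.6 in shEZH2#3. Replicate 2 of shluc was much higher than the other controls, and the shEZH2#3 libraries just cleared the lowest control. KIF1B fell with shEZH2#3 (-0.59 ± 0.21, edgeR adjusted p = 0.0322), but not without shluc replicate 2 (-0.26, adjusted p = 0.272), shEZH2#3 replicate 1 or 2 (adjusted p = 0.0665 and 0.0747), or with the GC and length correction (-0.21, adjusted p = 0.368).

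The kinesin-2 subunits KIF3A, KIF3B and KIF3C drive transport within cilia and of vesicles. KIF3B (ENSG00000101350, chromosome 20) was at 21.7, 31.3 and 18.8 CPM in shluc, with 20.1, 17.2 and 16.0 in shEZH2#1 and 18.4, 14.9 and 15.4 in shEZH2#3, again with shluc replicate 2 highest. It fell with shEZH2#3 (-0.56 ± 0.19, edgeR adjusted p = 0.0201). The call was lost without shluc replicate 2 (-0.32, adjusted p = 0.131), without shEZH2#3 replicate 2 or 3 (adjusted p = 0.0722 and 0.0592) and with the GC and length correction (-0.23, adjusted p = 0.278). KIF3A, under 1.2 CPM in every library, had -1.04 ± 0.63 with shEZH2#3 (adjusted p = 0.179), and KIF3C had 0.50 ± 0.25 (adjusted p = 0.108). KIF16B, a motor of early endosomes, had 2.63, 3.39 and 2.49 CPM in shluc, with 4.54, 3.02 and 3.60 in shEZH2#1 and 2.002, 2.31 and 1.44 in shEZH2#3. It passed against shluc with neither hairpin (0.39 ± 0.27, edgeR adjusted p = 0.338, and -0.57 ± 0.29, adjusted p = 0.107), and passed with shEZH2#3 under upper quartile scaling (adjusted p = 0.0474).

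KIF1C (ENSG00000129250, chromosome 17, 4997948 to 5028401), a fast carrier of integrin-bearing vesicles, was the most abundant transport kinesin and made up 68.6 to 85.1% of the class's summed CPM in a library. It measured 355, 254 and 311 CPM in shluc, with 290.4, 327 and 346 in shEZH2#1 and 326, 389 and 365 in shEZH2#3. The 3 groups overlapped, and the log2 fold changes were 0.07 ± 0.16 and 0.23 ± 0.16 (edgeR adjusted p = 0.802 and 0.234). KIF13B, which carries the scaffold protein DLG1, ran from 4.36 to 6.47 CPM over all libraries and had 0.13 ± 0.21 and 0.07 ± 0.21 (adjusted p = 0.701 and 0.804).

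**Figure D4:**
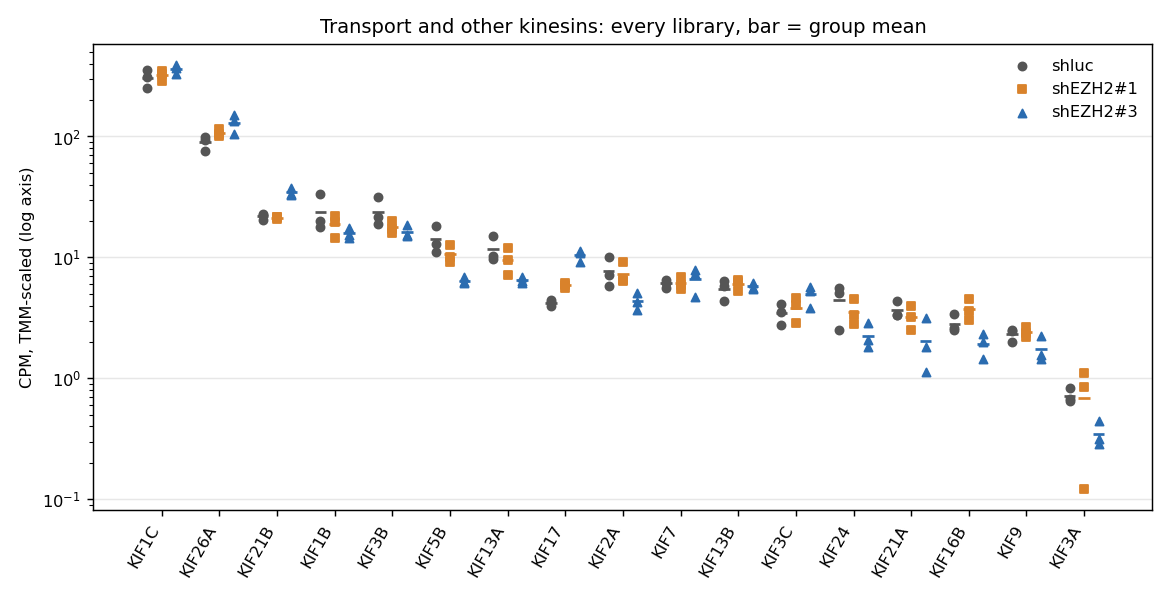
Levels of the 17 tested transport and other kinesins in every library, in CPM after TMM scaling on a log axis. Points are libraries, short bars are group means, and genes are ordered by mean level. KIF17 and KIF21B are higher in all 3 shEZH2#3 libraries (blue triangles) than in any shluc library (grey circles), and KIF5B is lower, while KIF1C overlaps in all 3 groups.

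The kinesins outside both classes also passed in both directions with shEZH2#3, where 3 of 7 tested fell and 2 rose (19.8% and 24.4% of all tested genes), and in neither direction with shEZH2#1, where edgeR, DESeq2 and limma-voom called 0 and 0 passed at an unadjusted p below 0.05 (19.0% of all tested genes were called). Under the GC and length correction 0 of the 7 passed with shEZH2#3, beside 3207 of all 13252 tested genes. KIF21B (ENSG00000116852, chromosome 1), which limits microtubule growth, had 23.0, 22.5 and 20.5 CPM in shluc, with 20.7, 21.6 and 21.7 in shEZH2#1 and 33.7, 37.7 and 32.7 in shEZH2#3. The shEZH2#3 libraries were clearly the higher group and the rest overlapped. It rose with shEZH2#3 (0.66 ± 0.14, edgeR adjusted p = 0.00147; 0.18 with the correction, adjusted p = 0.219). KIF26A (ENSG00000066735, chromosome 14), an atypical kinesin without motor activity and the most GC-rich tested member (68.3%), was at 98.4, 76.5 and 94.2 CPM in shluc, with 101, 116 and 104 in shEZH2#1 and 105, 150.2 and 134 in shEZH2#3. It rose with shEZH2#3 (0.53 ± 0.16, edgeR adjusted p = 0.0118), was not called without shEZH2#3 replicate 2 (0.41, adjusted p = 0.0797) and changed sign with the correction (-0.14, adjusted p = 0.275).

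The 3 falls in that class were of KIF2A, KIF24 and KIF21A. KIF2A (ENSG00000068796, chromosome 5), a depolymerase at spindle poles and in neurons, had 5.80, 10.1 and 7.09 CPM in shluc, with 9.07, 6.46 and 6.32 in shEZH2#1 and 5.09, 4.30 and 3.70 in shEZH2#3. It fell with shEZH2#3 (-0.82 ± 0.24, edgeR adjusted p = 0.00927), but not without shluc replicate 2 (-0.57, adjusted p = 0.0694) or with the correction (-0.25, adjusted p = 0.356); 8.97% of its exonic bases are shared with IPO11 on the same strand. KIF24 (ENSG00000186638, chromosome 9), a depolymerase that restrains cilium growth, had 5.11, 5.62 and 2.49 CPM in shluc, with 4.54, 2.84 and 3.31 in shEZH2#1 and 2.06, 2.87 and 1.82 in shEZH2#3. It fell with shEZH2#3 although the groups overlapped (-0.98 ± 0.31, edgeR adjusted p = 0.0159). The call was lost without shluc replicate 1 or 2 or shEZH2#3 replicate 3 (adjusted p from 0.0568 to 0.0892) and with the correction (-0.76, adjusted p = 0.0576). KIF21A (ENSG00000139116, chromosome 12), a cortical regulator of microtubule growth, had 3.36, 4.39 and 3.35 CPM in shluc, with 3.93, 3.20 and 2.50 in shEZH2#1 and 3.15, 1.12 and 1.82 in shEZH2#3. Its fall (-0.86 ± 0.32, edgeR adjusted p = 0.0343) was lost without shluc replicate 1 or 2 or shEZH2#3 replicate 2 or 3 (adjusted p from 0.0507 to 0.16) and with the correction (-0.26, adjusted p = 0.569). KIF7, the ciliary-tip regulator of Hedgehog signalling, and KIF9, a motor of motile cilia, passed with neither hairpin (0.00 and 0.12; 0.06 and -0.40). The corrected KIF7 values were -0.38 and -0.52 (adjusted p = 0.191 and 0.0591). On the opposite strand, KIF7 shares 11.8% of its exonic bases with TICRR, and KIF24 shares 2.33% with UBAP1. KIF9 shares 14.9% with KIF9-AS1 and 3.04% with KLHL18, also on the opposite strand. Those parts of their counts are uncertain.

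Summed over their tested members, mitotic kinesins took 579.6 ± 42.3 CPM in shluc, with 569 ± 16.1 in shEZH2#1 and 483 ± 19.9 in shEZH2#3 (SD, n = 3). Transport kinesins took 397 ± 35.1, 398 ± 22.3 and 429 ± 31.7 CPM. The ratio of the sums was 1.43, 1.46 and 1.49 in the shluc libraries, 1.47, 1.44 and 1.38 in shEZH2#1 and 1.17, 1.08 and 1.14 in shEZH2#3. All shEZH2#3 ratios were below those of the other groups, which overlapped each other. The sums are ruled by 1 gene each: KIF22 took 40.6 to 73.3% of the mitotic sum. Without KIF22 the mitotic sum was 297 ± 30.3 CPM in shluc, with 212 ± 5.05 in shEZH2#1 and 146 ± 22.9 in shEZH2#3, so all 3 groups then stood apart. Without KIF1C the transport sum was 90.2 ± 23.1, 76.9 ± 7.79 and 68.4 ± 0.813 CPM. The shEZH2#1 and shluc libraries overlapped, and every shEZH2#3 library (67.8 to 69.3) lay below both of these groups. No p is given for these sums, because the members were chosen with results of these data known.

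The classes differ in base composition as well. The median GC content of the longest transcript was 42.3% for the tested mitotic kinesins (34.2 to 58.9%), 47.4% for transport kinesins (37.8 to 63.2%) and 51.8% for the others (41.6 to 68.3%). Across the 28 tested kinesins the rank correlation of the shEZH2#3 fold change with GC content was 0.73, beside 0.69 across 12949 tested genes; these points share libraries and depth. With the GC and length correction the values were 0.24 and 0.00. For shEZH2#1 they were 0.41 and 0.47, and -0.35 and -0.07 with the correction. With the correction, 7 of 11 mitotic kinesins fell with shEZH2#3 and 0 rose (median -0.76), and 5 of the 8 members called without it were called again: KIF11, KIF20A, KIF23, KIF2C and KIF4A. With shEZH2#1 the corrected count was 2 lower and 0 higher (median -0.10). Over all 13252 tested genes, the corrected counts were 1528 lower and 1679 higher with shEZH2#3, and 1311 and 1089 with shEZH2#1. How far base composition accounts for the remaining differences was not tested.

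**Figure D5:**
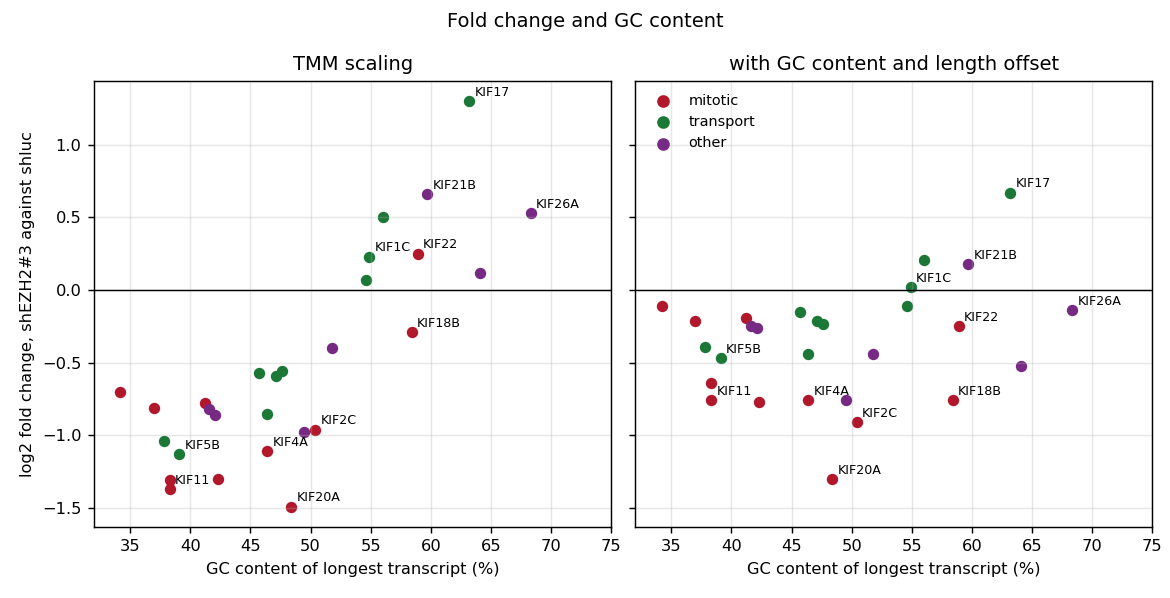
Log2 fold change with shEZH2#3 against GC content of the longest transcript (%) for the 28 tested kinesins, with TMM scaling (left) and with the GC content and length correction (right). Each point is a gene coloured by class. On the left the points rise from GC-poor to GC-rich genes (rank correlation 0.73); on the right the slope is smaller (0.24) and KIF20A remains lowest at -1.30.

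EZH2 did not differ detectably between the hairpins (log2 fold change of shEZH2#1 against shEZH2#3 0.02 ± 0.19, edgeR adjusted p = 0.943), while several kinesins did. Compared directly, 6 of 11 mitotic kinesins were higher in shEZH2#1 than in shEZH2#3 and 0 were lower, with a median of 0.67. The counts were 7 and 0 at an unadjusted p below 0.05, 6 and 0 by DESeq2 and 5 and 0 by limma-voom. Over all tested genes 25.0% passed, 9.46% higher and 15.5% lower (1254 and 2057), and with upper quartile scaling 2207 and 1404; the mitotic counts were 6 and 0 with either scaling. All shEZH2#1 libraries were above all shEZH2#3 libraries for 7 mitotic members and below for 1, beside 19.7% and 23.2% of all genes. KIF15 (1.15 ± 0.30, adjusted p = 0.00834), KIF23 (1.13 ± 0.22, adjusted p = 0.00095) and KIF4A (1.09 ± 0.18, adjusted p = 0.000236) showed the largest differences, kept in every alternative tried. KIF11 differed by 0.71 (adjusted p = 0.0344), KIF2C by 0.60 (adjusted p = 0.0134) and KIF20A by 0.58 (adjusted p = 0.0167). The KIF11 difference was lost with the GC and length correction (0.44, adjusted p = 0.136) and with any 1 shEZH2#1 library or shEZH2#3 replicate 2 left out (adjusted p from 0.0723 to 0.169). That of KIF2C was lost without shEZH2#1 replicate 1 or shEZH2#3 replicate 1 (adjusted p = 0.055 and 0.0681), and that of KIF20A without shEZH2#1 replicate 2 or shEZH2#3 replicate 1 (adjusted p = 0.0613 and 0.0803).

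Among transport kinesins, KIF16B (0.96 ± 0.29, edgeR adjusted p = 0.0193) and KIF5B (0.73 ± 0.21, adjusted p = 0.0142) were higher in shEZH2#1 than in shEZH2#3, and KIF17 was lower (-0.82 ± 0.19, adjusted p = 0.00297). Both higher calls were lost without shEZH2#1 replicate 1 (adjusted p = 0.108 each), and that of KIF16B also without shEZH2#3 replicate 3 (adjusted p = 0.0873). That of KIF5B was also lost with the GC and length correction and a replicate block together (0.43, adjusted p = 0.0591). The KIF17 call was kept in all 20 alternatives. Of the other kinesins, KIF21B was lower in shEZH2#1 (-0.70 ± 0.15, edgeR adjusted p = 0.00158) and KIF2A higher (0.74 ± 0.24, adjusted p = 0.0285). The KIF2A call was lost without shEZH2#1 replicate 1 or shEZH2#3 replicate 2 or 3 (adjusted p from 0.0701 to 0.187) and with the GC and length correction (0.46, adjusted p = 0.0886). KIF13A, not called here (0.56, adjusted p = 0.0627), passed in 7 alternatives, among them the fits without shEZH2#1 replicate 3 (adjusted p = 0.0288) and without shluc replicate 2 (adjusted p = 0.0344), and KIF21A passed without shEZH2#3 replicate 1 (1.12, adjusted p = 0.018).

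Most RNAs of proteins that work with the mitotic kinesins fell. Of 25 listed partners, all tested, 14 fell and 0 rose with shEZH2#1 (median -0.58), and 22 fell and 0 rose with shEZH2#3 (median -1.07), beside 7.89% and 19.8% of all tested genes lower. AURKB, INCENP and CDC14A, named after their values were seen, did not pass with shEZH2#3 (-0.13, -0.34 and -0.48). Under the GC and length correction the counts were 12 and 23 lower, and 0 higher in both. Over all 13252 tested genes, 1311 and 1528 were then lower. With the correction, AURKB (-0.52, edgeR adjusted p = 0.00704) and INCENP (-0.88, adjusted p = 0.00022) were called lower with shEZH2#3. ASPM (-0.42, adjusted p = 0.228) and CDC14A (0.1, adjusted p = 0.923) were not. AURKB and INCENP were then also lower with shEZH2#1 (-0.37 and -0.91, adjusted p = 0.0448 and 0.00026). The partners called with both hairpins and with the largest mean changes included ANLN, the anillin scaffold of the contractile ring, at 43.4 ± 11.6 CPM in shluc, with 27.4 ± 4.31 in shEZH2#1 and 14.6 ± 1.69 in shEZH2#3 (SD, n = 3). AURKA, the Aurora A kinase of spindle poles, fell from 58.2 ± 3.60 CPM to 31.8 ± 3.20 and 23.6 ± 2.66. The kinetochore checkpoint kinase BUB1 fell by 0.60 and 1.54 on the log2 scale (edgeR adjusted p = 0.0219 and 9.09e-06). CCNB1, the cyclin that drives entry into mitosis, fell by 0.71 and 1.37 (adjusted p = 0.0115 and 3.26e-05). ECT2, which activates RhoA at the central spindle, fell by 0.66 and 1.37 (adjusted p = 0.0382 and 0.000125). TPX2, which activates Aurora A on the spindle, fell by 0.77 and 1.23 (adjusted p = 0.00149 and 1.05e-05). With the correction, the shEZH2#1 calls of ANLN (-0.32, adjusted p = 0.0751), BUB1 (-0.32, adjusted p = 0.0838) and ECT2 (-0.33, adjusted p = 0.169) were lost, and the other calls of these 6 genes were kept.

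Of 15 kinesin relatives and adaptors, all tested, 6 rose and 0 fell with shEZH2#1 (median 0.39), and 5 rose and 3 fell with shEZH2#3 (median 0.17). The shares of all tested genes were 11.2% higher and 7.89% lower for shEZH2#1, against 24.4% higher and 19.8% lower for shEZH2#3. MAPK8IP3 (JIP3), an adaptor that links kinesin-1 and dynein to axonal cargo, rose from 46.6 ± 3.39 CPM to 164 ± 13.4 with shEZH2#1 and 84.0 ± 14.4 with shEZH2#3. The kinesin light chain KLC4 rose from 44.0 ± 5.56 to 74.3 ± 3.76 and 87.7 ± 3.49 CPM. The minus-end motors KIFC2 (0.85 and 0.85, edgeR adjusted p = 0.0089 and 0.00387) and KIFC3 (0.50 and 0.62, adjusted p = 0.0463 and 0.00687) rose with both hairpins. Of the most abundant members, PLEKHM2, which couples lysosomes to kinesin-1, rose with shEZH2#3 (0.68, adjusted p = 0.00225), and the light chain KLC2 passed with neither hairpin (0.39 and 0.17). The 3 falls with shEZH2#3, named after their values were seen, were of KIFBP, which blocks the motor domains of several kinesins (-0.98, adjusted p = 0.000142), the light chain KLC1 (-0.93, adjusted p = 0.000218), and KIFC1, a minus-end motor that clusters spindle poles (-0.44, adjusted p = 0.0329). With the GC and length correction the counts were 5 higher and 1 lower with shEZH2#1, and 1 higher and 4 lower with shEZH2#3. Of all 13252 tested genes, 1089 were then higher and 1311 lower with shEZH2#1, and 1679 and 1528 with shEZH2#3. KLC4 was the 1 higher with shEZH2#3 (0.47, adjusted p = 0.000831). MAPK8IP3 was called with shEZH2#1 (1.45) and lost with shEZH2#3 (0.23, adjusted p = 0.0736). The KIFC2 calls (0.36 and 0.12, adjusted p = 0.107 and 0.586), the KIFC3 calls (0.10 and -0.03, adjusted p = 0.554 and 0.865) and the PLEKHM2 call (0.07, adjusted p = 0.596) were lost. KIFBP, KLC1 and KIFC1 were again lower with shEZH2#3, and KLC2 was also called lower (-0.43, adjusted p = 0.00542). KIFBP was called higher (0.39, adjusted p = 0.0199) and KIFC1 lower (-0.54, adjusted p = 0.00544) with shEZH2#1. CENPE, the kinetochore kinesin whose symbol lies outside the family rule, had -0.16 and -0.70 and passed with neither hairpin.

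Dynein and its activator dynactin pull cargo and spindle poles towards microtubule minus ends. Of the 25 tested genes of 28 listed, 3 fell and 1 rose with shEZH2#1 (median -0.21), and 8 fell and 4 rose with shEZH2#3 (median -0.32; 3 and 2, and a median of 0.07, with the GC and length correction). Together 4 and 12 of 25 were called without the correction, beside 19.0% and 44.2% of all tested genes. With it, 1528 of all 13252 tested genes were lower and 1679 higher with shEZH2#3. HOOK2, a cargo adaptor of dynein, rose with both hairpins (0.69 ± 0.18 and 0.88 ± 0.18, edgeR adjusted p = 0.0112 and 0.00086), and ACTR10, a dynactin pointed-end subunit, fell with both (-0.73 ± 0.21 and -0.53 ± 0.20, adjusted p = 0.0185 and 0.043). The most abundant members were DCTN1, the large dynactin subunit, and DYNC1H1, the dynein heavy chain. DCTN1 rose with shEZH2#3 (0.47, adjusted p = 0.0222), and DYNC1H1 fell with shEZH2#1 (-0.71, adjusted p = 0.0197). The dynein light chain DYNLRB1 rose with shEZH2#3 (0.71, adjusted p = 0.00263), and ACTR1A, the filament subunit of dynactin, passed with neither hairpin (0.33 and 0.30). Under the correction the calls of HOOK2 (0.31 and 0.24, adjusted p = 0.133 and 0.213), ACTR10 (-0.51 and 0.03, adjusted p = 0.062 and 0.919) and DCTN1 with shEZH2#3 (0.07, adjusted p = 0.646) were lost, while DYNLRB1 (0.78) and DYNC1H1 with shEZH2#1 (-0.54) were called again. DYNC1H1 with shEZH2#3 (-0.44, adjusted p = 0.0248), DCTN1 with shEZH2#1 (-0.30, adjusted p = 0.0496) and ACTR1A with shEZH2#1 (0.29, adjusted p = 0.0482) then also passed.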

How the data were processed

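Poly(A) RNA gave dUTP libraries (TruSeq Stranded mRNA), per the labels' protocols. The submitters' processing notes name fastp, HISAT2, StringTie and GRCh38 (hg38), without versions; which tool counted reads, with what annotation and strand setting, is not given in the sources used here, so reads of overlapping and near-identical genes are uncertain. The authors deposited estimated counts per Ensembl gene without normalization: 14.65 to 18.55% of nonzero values had decimals, and the 9 single-library tables held the values of the series table.

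Symbols came from a naming table (51996 genes) or GENCODE 29 (342), and 5567 genes had none. Rounded counts entered edgeR 4.0.16 (R 4.3.3; filterByExpr, TMM, quasi-likelihood fit of 3 group means over 9 libraries, Benjamini-Hochberg adjustment, called below 0.05). Where no other tool is named, an adjusted p-value is edgeR's. CPM are scaled to the TMM-adjusted total. A standard error is the size of the unshrunken log2 fold change divided by the square root of F. The correction used a smooth of log counts on GC content and length per library (span 0.3) as an offset and covered 97.7% of tested genes. Other alternatives were DESeq2 1.42.0, limma-voom (limma 3.58.1), RLE scaling, upper quartile scaling, no filter, at least 5 CPM in 3 libraries, a fit of 2 groups alone, a replicate block, removal of 2 abundant genes without symbols, and each library left out. The fit was also run on simulated counts with the same spread for all genes and no GC trend between groups. These libraries have such a trend, so that run does not bear on it. Replicates differed beyond counting noise (chi-square per degree of freedom 14.54 to 76.86), so none was counted as a copy.

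The members, classes and gene lists were chosen with earlier results of these data known. Library values are given for members called in any contrast and for the 2 most abundant of each class; of each related list, members called with both hairpins by mean change and then the most abundant are named, up to 6, and others are marked. Protein sequences were not used here.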

Additional observations from a re-analysis of the deposited data

Results flagged for a closer look

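In 11 kinesins the effect of the hairpins differed between shEZH2#1 and shEZH2#3 when these were compared directly (edgeR, adjusted p below 0.05), although EZH2 itself did not differ detectably. Values are log2 fold changes of shEZH2#1 against shEZH2#3. The mitotic members were KIF15 (1.15), KIF23 (1.13), KIF4A (1.09), KIF11 (0.71), KIF2C (0.60) and KIF20A (0.58), all higher in shEZH2#1. The transport members were KIF16B (0.96) and KIF5B (0.73), higher in shEZH2#1, and KIF17 (-0.82), lower. The remaining members were KIF2A (0.74) and KIF21B (-0.70). Over all tested genes 25.0% passed the same test. The rank correlation of this difference with GC content was -0.78 across the 28 tested kinesins and -0.41 across 12949 genes, and -0.53 and -0.04 with the GC and length correction. With that correction KIF11 (0.44, adjusted p = 0.136) and KIF2A (0.46, adjusted p = 0.0886) no longer passed and the other 9 did. KIF22 (0.34, adjusted p = 0.00672) and KIF13A (0.48, adjusted p = 0.044) passed in addition. Of all 13252 tested genes, 1745 were then higher in shEZH2#1 and 1997 lower.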

How the results depend on the processing

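Of 1709 refitted fold changes of kinesins and EZH2, 1595 kept their side of the threshold, 93 fell short of it, 18 newly passed and 3 reversed. A change of sign counted as a reversal only where the main or the refitted value passed. The 1595 include changes of sign between values that did not pass, as for KIF7 with shEZH2#3 (-0.52 to 0.32 over the alternatives). The reversals were KIF22 with shEZH2#3 under the GC and length correction (-0.25) and KIF26A with shEZH2#3 under that correction (-0.14) and with the replicate block added (-0.14). The count of mitotic kinesins called with shEZH2#1 (3) was 1 with RLE scaling, 1 with the replicate block and 1 without the 2 abundant unnamed genes. It ran from 1 to 3 with a library left out, and was 1 without shluc replicate 2 or any 1 shEZH2#1 library; KIF20A was the call kept in all. The transport count with shEZH2#3 (5) was 2 with the GC and length correction, 2 with that correction and the block, and 3 to 5 with a library left out (3 without shluc replicate 2 or shEZH2#3 replicate 2). The transport count with shEZH2#1 (0) ran from 0 to 1 with a library left out, and that between hairpins (3) from 1 to 4, with 1 without shEZH2#1 replicate 1. The mitotic count ran from 6 to 9 with shEZH2#3 and from 4 to 6 between hairpins over all alternatives. The count of other kinesins with shEZH2#3 (5) was 3 with the stricter filter, 0 with the GC and length correction with or without the block, 2 without shluc replicate 2, and 3 without shluc replicate 1 or shEZH2#3 replicate 2 or 3. Between hairpins it (2) was 1 with that correction, with or without the block, and 1 without shEZH2#1 replicate 1 or shEZH2#3 replicate 2 or 3. Over all genes, the 2523 calls with shEZH2#1 were 1550 without shluc replicate 2, 1344 without shEZH2#1 replicate 2 and 1159 without replicate 3. The 5861 with shEZH2#3 were 3207 with the GC and length correction and 3031 with the block added, and the 3311 between hairpins were 1956 without shEZH2#1 replicate 1. Apart from fits with fewer libraries or genes, the cause was not tested.

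Libraries with the same replicate number did not deviate together more than others. The correlation of deviations from the group means was -0.122 to 0.082 over 9 same-numbered pairs and -0.159 to 0.165 over 18 others. With 3 libraries per group these values cannot show that no batch was shared. The replicate block ended the calls of KIF11 and KIF18B with shEZH2#1 (adjusted p = 0.0523 and 0.0528) and KIF15 with shEZH2#3 (adjusted p = 0.0696) and changed no other call of a kinesin. Members below about 3 CPM in shluc, such as KIF15, KIF20B and KIF3A, rest on few counts.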
